A study of Mus musculus with 4 samples.

Results

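The nuclear genes of the mitochondrial respiratory chain were examined for promoter peaks of the methyltransferase subunits KMT9alpha and KMT9beta and of histone H4 monomethylated at lysine 12 (H4K12me1), the mark that the enzyme is known to write. KMT9alpha, encoded by N6amt1, is the catalytic subunit and KMT9beta, encoded by Trmt112, its partner. The members were all protein-coding genes of GENCODE release M21 on the assembled chromosomes whose symbols begin with Nduf followed by a, b, c, s or v, with Uqcr, with Cox4 to Cox8 or with Atp5, together with Sdha, Sdhb, Sdhc and Sdhd. These were 94 of 21853 genes, with 93 different symbols, because Atp5o names both the usual gene and an overlapping locus on chromosome 16. A promoter was 1 kb on either side of the start of any protein-coding transcript of the gene, and a peak counted when it shared at least 1 bp with that window. The peaks came from organoids of a mouse colorectal tumour induced by azoxymethane and dextran sulfate sodium, clone 3 at passage 14. Each antibody had 1 library, so the material is 1 clone without replicates, no p-value is given, and intervals cover counting error only. The genotype field holds no genotype. The treatment text names both tamoxifen (1 µM) and vehicle for the organoids without tying either to a library, and an input library is not analysed here. RNA was not measured in these libraries, so the labelled tissue was not checked against marker genes.

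The respiratory chain sits in the inner mitochondrial membrane. Complexes I and II pass electrons from NADH and succinate to ubiquinone, complex III passes them on to cytochrome c, complex IV reduces oxygen, and complex V, ATP synthase, uses the proton gradient to make ATP. Apart from complex II, the complexes combine subunits from the mitochondrial and the nuclear genome, and nuclear genes alone are described here. The lists hold 0 peaks on mitochondrial DNA. Several subunits of complex IV exist as paired genes, one used in most tissues and one mainly in heart and skeletal muscle, lung or testis.

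KMT9alpha peaks were found at nearly every respiratory chain promoter, and the genes that lacked one were the tissue-restricted isoforms. Of the 94 genes, 85 (90.4%, exact Clopper-Pearson 95% interval 82.6 to 95.5) had a KMT9alpha promoter peak, where 54.2% of all protein-coding genes did. The 9 without it were 8 isoforms with restricted expression and the second Atp5o locus. KMT9beta was found at 82 members (87.2%, 78.8 to 93.2), where the share over all genes was 65.1%. H4K12me1 was found at 51 members (54.3%, 43.7 to 64.6), an interval that holds the 44.9% found over all genes. All 3 were present at 46 members (48.9%, 38.5 to 59.5), where 35.5% of all genes had all 3. Weighted to the CpG classes of the members, described below, 49.5% of genes would have all 3. At each of these 46 members, peaks of all 3 lists reached the promoter window of the same start. The same held at 7557 of the 7747 protein-coding genes with all 3. No peak of any list was found at 5 members, where 29.6% of all genes had none. With only the peaks at or above the median score of their list, H4K12me1 was found at 28.7% of members, where 30.9% of all genes had it, and all 3 at 25.5% of members, where 23.1% of all genes had them.

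A score given for a gene is that of the highest peak in any of its promoter windows, and at 6 of the 83 members with peaks of several lists these highest peaks did not all overlap. The most frequent pattern after all 3 was both subunits without the mark, at 32 of the 94 members. KMT9alpha alone was found at 4 members, Cox7b, Ndufa1, Ndufb11 and Sdhb. KMT9alpha with H4K12me1 but no KMT9beta was found at Ndufa9, Ndufaf1 and Uqcrb. KMT9beta with H4K12me1 but no KMT9alpha was found at Cox6b2 and Ndufa4l2, and KMT9beta alone at Cox4i2 and the second Atp5o locus. Among all 21853 protein-coding genes these patterns were found at 3390, 566, 151, 1463 and 1619 genes, in the order given. The KMT9alpha and H4K12me1 peaks overlapped at all 49 members that had both, whereas among all protein-coding genes with both they overlapped at 7449 of 7898.

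**Figure D1:**
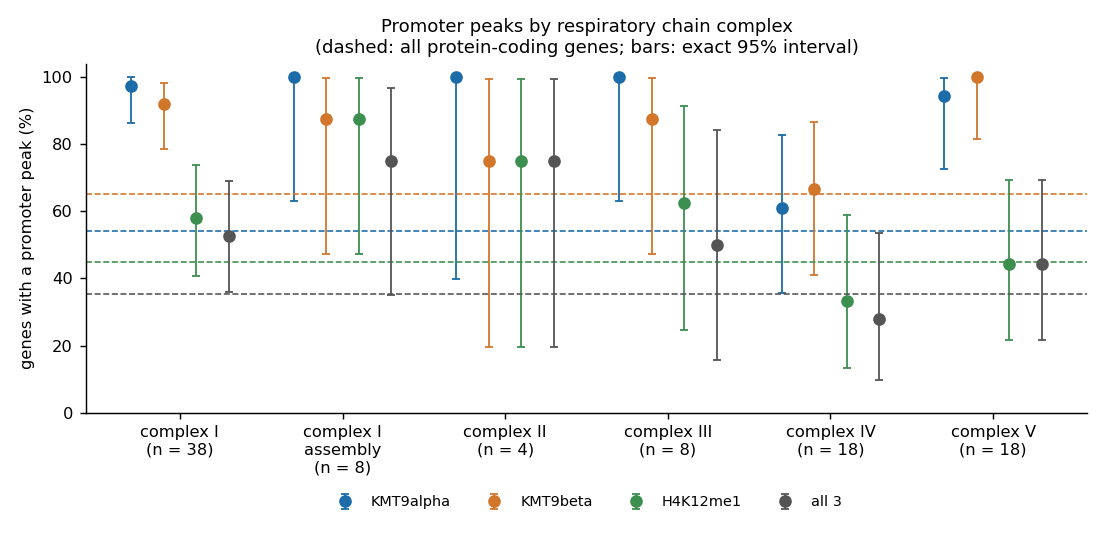
Share of genes with a promoter peak (%, vertical axis) in each complex for KMT9alpha, KMT9beta, H4K12me1 and all 3; bars are exact 95% intervals over genes and dashed lines the shares over all protein-coding genes. KMT9alpha lies at or above 94.4% in every group except complex IV, where it is 61.1%.

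Complex I, NADH dehydrogenase, is the largest complex and had 38 genes by symbol. KMT9alpha was present at 37 of them, KMT9beta at 35, H4K12me1 at 22 and all 3 at 20. For this and each group below, the shares over all genes to set beside were 54.2%, 65.1%, 44.9% and 35.5%. Ndufa4l2 was the gene without KMT9alpha, and Ndufa1, Ndufb11 and Ndufa9 were those without KMT9beta. The genes without H4K12me1 were Ndufa1, Ndufa2, Ndufa3, Ndufa5, Ndufa6, Ndufb2, Ndufb4, Ndufb6, Ndufb7, Ndufb9, Ndufb11, Ndufc1, Ndufs5, Ndufs6, Ndufv2 and Ndufv3. Of the genes with all 3, Ndufa10 and Ndufa11 were first by KMT9alpha score, ties taken by symbol. Ndufa10 had a KMT9alpha score of 3100, a KMT9beta score of 149.03 and an H4K12me1 score of 147.01, and Ndufa11 had 3100, 601.13 and 66.42 in the same order, the mark with its midpoint at -1154 bp from the nearest start (negative is upstream). The highest H4K12me1 score of any member was 335.18 at Ndufa13, which encodes an accessory subunit also known as GRIM-19. Ndufv2, which encodes a core subunit with an iron-sulfur cluster, had the lowest KMT9beta score of the members with a KMT9beta peak, 60.91, and no mark.

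The symbols beginning with Ndufaf belong to assembly factors of complex I, which help to build the complex and are not part of it. All 8 carried KMT9alpha, 7 carried KMT9beta and 7 H4K12me1, and 6 had all 3. Ndufaf3 had the highest KMT9beta score of any member, 721.61, beside a KMT9alpha score of 3100 and an H4K12me1 score of 141.14. Ndufaf8 followed by KMT9alpha score, with a KMT9alpha score of 2132.97, a KMT9beta score of 202.64 and an H4K12me1 score of 149.07. The mark was missing at Ndufaf4 and KMT9beta at Ndufaf1. With peaks at or above the median score of the list, H4K12me1 was left at 3 of the 8. At that threshold the share over all genes, given above, was lower too.

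Complex II, succinate dehydrogenase, is also an enzyme of the citric acid cycle. Its 4 genes all had KMT9alpha, and 3 had all 3. Sdha, the flavoprotein gene, had a KMT9alpha score of 2352.29, a KMT9beta score of 105.44 and an H4K12me1 score of 118.74. Sdhc and Sdhd, which encode the membrane anchors, also had all 3. Sdhc scored 3100, 171.33 and 66.85 in these lists, and Sdhd scored 3100, 246.77 and 118.66. Sdhb, the iron-sulfur subunit gene, had KMT9alpha alone at its promoter, with a score of 2603.66. That KMT9alpha peak began 103 bp downstream of the annotated start, and the nearest KMT9beta and H4K12me1 peaks lay 2770 and 2595 bp away, although 7 KMT9beta and 6 H4K12me1 peaks overlapped the gene. Sdha and Sdhd share their promoter windows with Ccdc127 and Timm8b, so their peaks cannot be assigned to 1 gene of each pair.

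Complex III, the cytochrome bc1 complex, had KMT9alpha at 8 of 8 genes, KMT9beta at 7, H4K12me1 at 5 and all 3 at 4. Uqcrc1, which encodes a core protein, had a KMT9alpha score of 3100 and an H4K12me1 score of 209.33. The KMT9beta peak that overlapped both scored 118.18, while the highest KMT9beta peak of Uqcrc1, 314.34, had its midpoint 2123 bp downstream of another start inside the gene. Uqcrfs1, the gene of the Rieske iron-sulfur protein, had 3100, 221.06 and 65.79. Uqcrb lacked KMT9beta, and Uqcr10, Uqcr11 and Uqcrc2 lacked H4K12me1. When weaker peaks than the median of the list were set aside, H4K12me1 was left at 1 of the 8 genes.

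Complex IV, cytochrome c oxidase, had the lowest shares, with KMT9alpha at 11 of 18 genes, KMT9beta at 12, H4K12me1 at 6 and all 3 at 5. The 7 genes without KMT9alpha were Cox4i2, Cox6a2, Cox6b2, Cox7a1, Cox7b2, Cox8b and Cox8c, and the remaining 11 all had it. Cox5b, a subunit gene without a paired isoform, had a KMT9alpha score of 3100, a KMT9beta score of 436.3 and an H4K12me1 score of 111.17. Cox7a2l, which encodes a factor that joins complexes III and IV, had both subunits without the mark, as did Cox5a, Cox6b1, Cox7a2 and Cox7c.

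The restricted isoform genes were set beside their widely expressed partners. KMT9alpha was found at 0 of 8 restricted genes (0%, 0 to 36.9) and at 7 of 7 partners. KMT9beta was found at 3 of 8 and 6 of 7, and H4K12me1 at 2 of 8 and 4 of 7. Over all protein-coding genes the shares were 54.2%, 65.1% and 44.9% in the same order. No test of these differences was made. Cox6a2, Cox7a1 and Cox8b, the isoforms of heart and skeletal muscle, had no promoter peak of any list. Their partner Cox6a1 had a KMT9alpha score of 2012.25, a KMT9beta score of 234.3 and an H4K12me1 score of 297.17, and Cox7a2 had KMT9alpha at 1986.47 and KMT9beta at 209.47 without the mark. Cox8a had all 3, with 2403.12, 129.94 and 140.3. Cox7b2 and Cox8c, isoforms known from testis, had none either, while Cox7b had a KMT9alpha peak with a score of 540.96 and no other.

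The remaining restricted genes had peaks of KMT9beta. Cox6b2, known from testis, had KMT9beta at 102.94 and H4K12me1 at 90.75, while its partner Cox6b1 had KMT9alpha at 1378.19 and KMT9beta at 136 without the mark. Cox4i2, known from lung and from cells short of oxygen, had KMT9beta at 138.51, and Cox4i1 had all 3, with 3100, 315.67 and 59.24. Ndufa4l2, a gene known to be induced by lack of oxygen, had KMT9beta at 333.38 and H4K12me1 at 223.32. Its partner Ndufa4, whose product is now counted with complex IV, had all 3, with 1825.65, 99.42 and 115.44. The KMT9beta peak and the highest H4K12me1 peak at Ndufa4l2 had their midpoints at -2029 and -1528 bp from the start (negative is upstream) and reached only the edge of the promoter window, while a weaker H4K12me1 peak with a score of 77.72 covered the start. A KMT9alpha peak lay 1254 bp from a start of Ndufa4l2 and another 1923 bp from one of Cox6b2, so with a window of 2 kb 2 of the 8 restricted genes had KMT9alpha, and both had all 3. For the other 6 the nearest KMT9alpha peak was between 5849 bp (Cox8b) and 109361 bp (Cox7b2) away. Cox8b had a KMT9beta peak 1096 bp and an H4K12me1 peak 1787 bp from a start, outside the 1 kb window but within 2 kb.

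**Figure D2:**
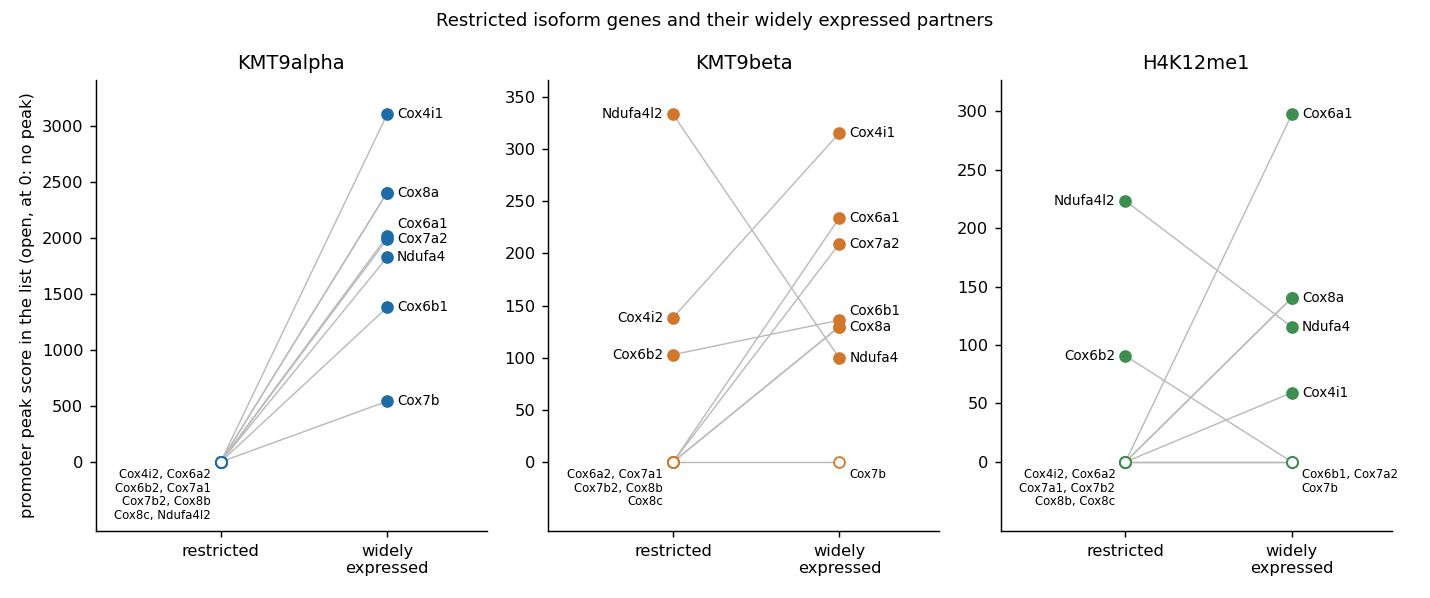
Highest promoter peak score in each list (vertical axis, a separate scale per list) for the 8 restricted isoform genes on the left and their widely expressed partners on the right of each panel; grey lines join partners and open circles at 0 mean that no peak was found. All 8 restricted genes lie at 0 for KMT9alpha, and all 7 partners lie between 540.96 and 3100.

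The promoter sequences of 2 pairs, picked after their values were seen, are shown as examples. In each pair a muscle isoform with no promoter peak stands beside a partner with KMT9alpha and more CG. The lines give the 200 bases before the RefSeq start (GRCm38.p6), 5′ to 3′ on the strand of the gene, with each CG in capitals. Cox7a1 lies at chr7:30183971-30184170 (plus strand) with 4 CG, Cox7a2 at chr9:79759854-79760053 (minus strand) with 12, Cox8b at chr7:140900447-140900646 (minus strand) with 1 and Cox8a at chr19:7217617-7217816 (minus strand) with 11.
Cox7a1: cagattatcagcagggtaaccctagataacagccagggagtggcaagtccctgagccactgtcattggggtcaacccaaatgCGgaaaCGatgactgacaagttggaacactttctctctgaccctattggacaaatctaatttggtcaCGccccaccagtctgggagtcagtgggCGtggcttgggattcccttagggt
Cox7a2: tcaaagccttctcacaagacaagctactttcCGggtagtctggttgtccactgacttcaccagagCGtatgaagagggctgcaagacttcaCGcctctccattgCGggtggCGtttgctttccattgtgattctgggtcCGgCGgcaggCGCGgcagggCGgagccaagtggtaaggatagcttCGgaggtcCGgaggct
Cox8b: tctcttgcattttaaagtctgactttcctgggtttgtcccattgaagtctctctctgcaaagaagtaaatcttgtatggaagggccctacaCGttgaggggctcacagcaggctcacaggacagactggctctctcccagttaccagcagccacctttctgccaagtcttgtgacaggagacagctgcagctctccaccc
Cox8a: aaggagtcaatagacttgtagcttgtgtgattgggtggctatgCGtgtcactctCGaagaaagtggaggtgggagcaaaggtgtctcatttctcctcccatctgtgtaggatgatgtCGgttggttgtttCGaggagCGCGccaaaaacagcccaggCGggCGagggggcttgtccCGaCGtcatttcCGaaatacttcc

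Over the 1 kb centred on the main start, the CpG observed to expected ratio was between 0.186 and 0.468 in the restricted genes (median 0.328) and between 0.482 and 0.998 in the partners (median 0.777), so these groups did not overlap. The gap differed between pairs, and Cox7b2, with no peak, had a ratio of 0.468 beside 0.482 in Cox7b, which carried KMT9alpha. The median was 0.72 over all members and 0.57 over all protein-coding genes. When all genes were divided into 5 equal classes by this ratio, 5 of the restricted genes fell in the second lowest class and 3 in the middle class. KMT9alpha was present at 21.4% and 62.5% of all genes in those classes. Weighted to the classes of the restricted isoforms, 36.8% of genes would carry KMT9alpha, where 0 of 8 did. The exact interval for 0 of 8, 0 to 36.9, holds that share. For the restricted isoforms the weighted shares were 55.1% for KMT9beta, found at 3 of 8, and 36.1% for H4K12me1, found at 2 of 8. For the other 86 members the weighted share with KMT9alpha was 79.6%, where 98.8% had it. For H4K12me1 the weighted share for those 86 members was 60.6%, where 49 of the 86 had it, and for KMT9beta it was 87.3%, where 79 had it. For all 3 the weighted share was 52.1%, where 53.5% of the 86 had them. Atp5j2, a subunit gene of complex V, carried KMT9alpha with a score of 3100 at a ratio of 0.219, within the range of the restricted genes. Differences in expression between the paired genes were not measured, and the part of CpG content in the result was not tested.

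**Figure D3:**
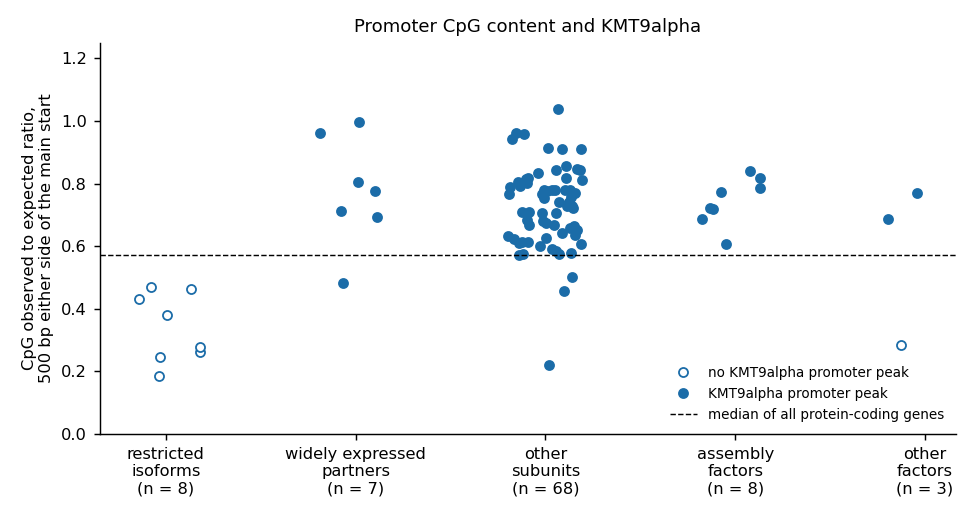
CpG observed to expected ratio of each member (vertical axis) by group of genes; filled circles have a KMT9alpha promoter peak, open circles have none, and the dashed line is the median of all protein-coding genes. The restricted isoforms are all open and lie at or below 0.468, and the single open circle elsewhere is the second Atp5o locus.

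Complex V, ATP synthase, had 18 genes by symbol, of which 16 encode subunits. KMT9alpha was present at 17 genes, KMT9beta at all 18, and H4K12me1 and all 3 at 8. The 16 subunit genes all had both KMT9 subunits, and 13 of them had a KMT9alpha score of 3100. Atp5a1 and Atp5c1, genes of the catalytic F1 part, had all 3. Atp5a1 had a KMT9alpha score of 3100, a KMT9beta score of 138.73 and an H4K12me1 score of 103.54, and Atp5c1 had 3100, 227.61 and 67.13 in the same order. Of the 5 genes of the F1 part, Atp5b and Atp5e lacked the mark. Atp5g1, Atp5g2 and Atp5g3 encode the same mature subunit c of the rotor ring. Atp5g1 had a KMT9alpha score of 1889.95, a KMT9beta score of 159.17 and an H4K12me1 score of 68.84, while Atp5g2 had 3100 and 167.94 and Atp5g3 had 3100 and 173.98 for the subunits, with no mark at either. The nearest H4K12me1 peaks to Atp5g2 and Atp5g3 lay 20433 and 18684 bp away. Atp5j2, Atp5l, Atp5mpl, Atp5o and Atp5s also lacked the mark. Atp5s encodes a factor named after ATP synthase, and the second Atp5o locus, ENSMUSG00000116933, had KMT9beta alone with a score of 73.87. Among the 11 genes of complex V with a promoter of their own, H4K12me1 was found at 2 (18.2%), Atp5g1 and Atp5k. The share was 42.3% over all genes without a shared promoter. The midpoint of the Atp5k peak was 1406 bp downstream of the nearest start. This difference in shares was not tested.

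Members on chromosome X had the same pattern in each case. Ndufa1, Ndufb11 and Cox7b carried KMT9alpha, with scores of 581.38, 1812.72 and 540.96, and neither KMT9beta nor H4K12me1. Of the 289 genes on chromosome X with KMT9alpha, KMT9beta was found at 21.1% and H4K12me1 at 1.38%, beside 95.8% and 68.3% of the autosomal genes with KMT9alpha. On chromosome 19, Ndufb8, Ndufs8, Ndufv1 and Cox8a all had all 3. So did 60.8% of all genes of that chromosome, and 435 of its 480 genes with KMT9alpha.

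At most members with KMT9alpha, peaks of both subunits covered the main start of transcription. Midpoints of the highest H4K12me1 peaks of members ran from -1528 to 1406 bp from the nearest start, and some of these peaks covered no start. Only peaks that reached a promoter window were taken, which limits these distances. Coverage was counted at genes chosen for a KMT9alpha promoter peak, so the KMT9alpha values are high by choice. Among the 85 members with KMT9alpha, 97.7% were covered by a KMT9alpha peak at the main start and 100% from 150 to 300 bp downstream of it, where the highest value over all 11854 genes with KMT9alpha was 89.7%. KMT9beta covered at most 91.8% of these members, 150 to 350 bp downstream, and at most 88.1% of all such genes. H4K12me1 covered at most 40.0%, 100 bp downstream, beside at most 46.2% of all such genes. The midpoint of the highest KMT9alpha peak was a median of 82 bp downstream of the nearest start, with quartiles at -33 and 211 bp, beside a median of 92 bp over all genes. In width, the median KMT9alpha peak at members measured 1269 bp, the median KMT9beta peak 1244.5 bp and the median H4K12me1 peak 685 bp, beside 1357, 1467 and 766 bp over all genes with a promoter peak. At 1000 bp downstream 21.2% of the members with KMT9alpha and 38.8% of all such genes were covered by KMT9beta.

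**Figure D4:**
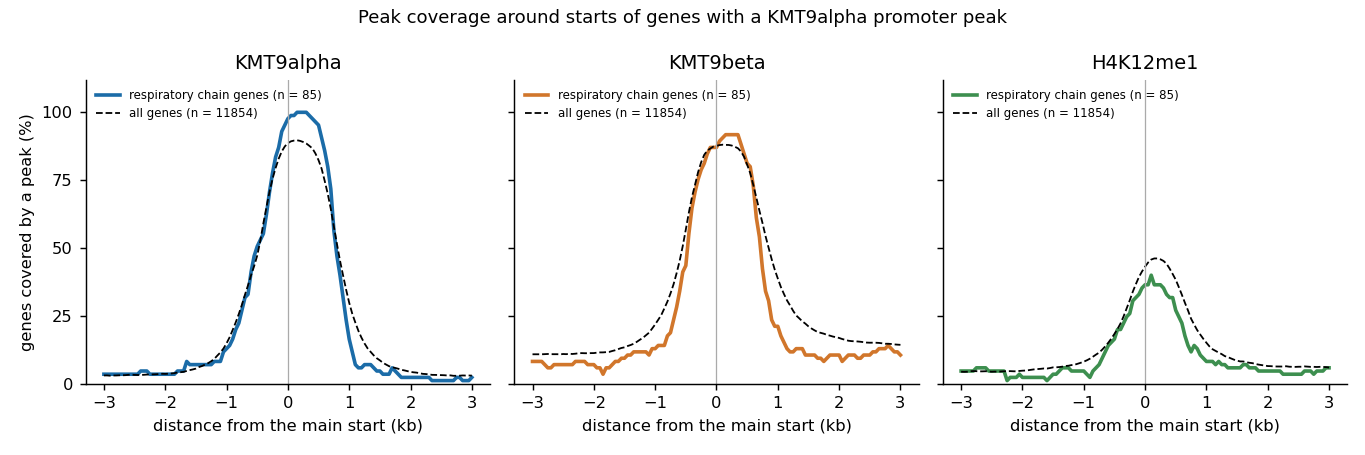
Share of genes with a KMT9alpha promoter peak that are covered by a peak (%, vertical axis) at each distance from the main start (kb, downstream positive) for the 3 lists; coloured lines are the 85 respiratory chain genes and dashed lines all 11854 genes. The KMT9alpha line reaches 100% downstream of the start, and the H4K12me1 line reaches 40.0%.

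Scores can be compared within a list only, and the KMT9alpha list has a ceiling at about 3100. That score or more was reached by 44 of the 85 members with KMT9alpha (51.8%), where 45.6% of all genes with a KMT9alpha promoter peak reached it. The count was 13 of 17 in complex V, 6 of 8 in complex III, 17 of 37 in complex I, 5 of 11 in complex IV, 2 of 4 in complex II and 1 of 8 among assembly factors. The lowest KMT9alpha scores were 375.51 at Ndufb10 and 402.04 at Uqcr11. The median KMT9beta score was 181.82 at members with a peak, beside 206.49 at all genes with one. The median H4K12me1 score was 89.73 at members, beside 104.12 at all genes with a promoter peak of the mark, and the members with the mark had scores from 52.11 (Ndufaf6) to 335.18 (Ndufa13). Members with KMT9alpha and H4K12me1 had a median KMT9beta score of 210.56 and those with KMT9alpha without the mark 165.28. The same medians over all genes were 271.4 and 170.63.

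**Figure D5:**
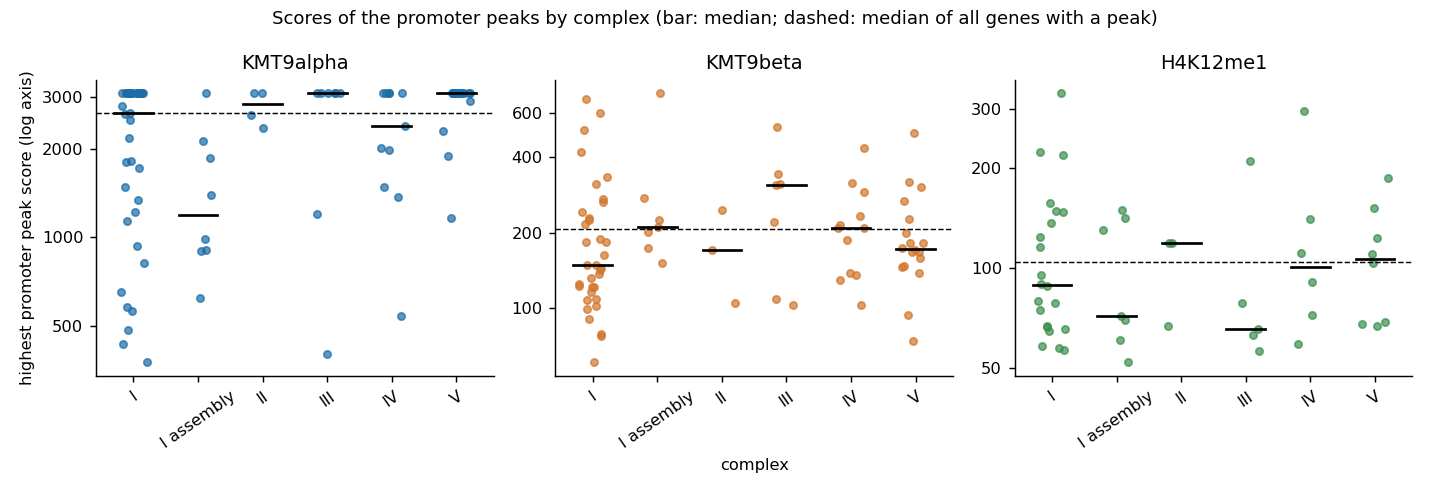
Highest promoter peak score of each member (vertical log axis, 1 panel per list) by complex; black bars are medians of the members with a peak and dashed lines the medians of all protein-coding genes with a peak in that list. KMT9alpha scores of complexes III and V have their medians at 3100, and assembly factors have a median of 1190.05.

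Many respiratory chain genes begin close to another protein-coding gene. The promoter window of 35 of the 94 members (37.2%) held a start of another protein-coding gene, where 12.9% of all genes shared theirs, and all 35 carried KMT9alpha, as did 88.7% of all genes with a shared promoter. H4K12me1 was found at 26 of these 35 (74.3%) and at 23 of the 50 other members with KMT9alpha (46.0%). Over all genes with KMT9alpha the mark was at 67.6% of those with a shared promoter and at 66.4% of the others. These differences were not tested, and a peak at a shared promoter cannot be assigned to 1 gene. Atp5j shares its promoter with Gabpa, an ETS transcription factor known to activate respiratory chain genes, and the peaks there scored 3100 (KMT9alpha), 304.43 (KMT9beta) and 109.95 (H4K12me1). Ndufa7 shares its promoter with Rps28, Ndufs1 with Eef1b2, Ndufb5 with Mrpl47 and Ndufs6 with Mrpl36, genes of cytosolic translation and of the mitochondrial ribosome.

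NRF1, ETS factors, YY1 and estrogen-related receptors (ERR) are known to bind promoters of respiratory chain genes. Motifs were searched on both strands from 250 bp before to 50 bp after the main start in all 94 members and all 21853 genes. The NRF1 motif was GCGCA, any base and GCGC, and it was found at 16 members (17.0%), at 10.4% of all genes with KMT9alpha and at 6.11% of all genes. The ETS motif CCGGAAG was found at 17 members (18.1%), 18.2% of all genes with KMT9alpha and 11.2% of all genes. The YY1 motif AANATGGCG was found at 6 members (6.38%), 5.28% of all genes with KMT9alpha and 3.16% of all genes, and the ERR motif TNAAGGTCA at 4 members (4.26%), 0.666% of all genes with KMT9alpha and 1.08% of all genes. GGGCGGG, the SP1 motif, was found at 27 members (28.7%), at 49.5% of all genes with KMT9alpha and at 33.6% of all genes, and CCAAT, bound by NF-Y, at 38.3% of members, 37.9% of all genes with KMT9alpha and 38.6% of all genes. None of the 8 restricted genes held the NRF1, ETS, YY1 or ERR motif, while 4 held SP1 and 4 held CCAAT. The NRF1 motif was found at 10 of the 49 members with KMT9alpha and H4K12me1 and at 6 of the 36 with KMT9alpha without the mark. A matching motif is not a measured binding site.

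NRF1 matches are shown for 1 member each of 4 complexes, 1 match per gene, with the motif in capitals and the flanking bases in lower case, 5′ to 3′ on the strand of the gene, from RefSeq promoters (GRCm38.p6). The RefSeq promoter of Sdha holds 3 matches, which begin 98, 55 and 10 bp before the start, and that of Cox6a1 holds 2, which begin 162 and 117 bp before. The match shown for Sdha (chr13:74350271-74350310, minus strand) begins 55 bp before its RefSeq start, that of Cox6a1 (chr5:115349096-115349135, minus strand) 162 bp before, that of Atp5g2 (chr15:102671065-102671104, minus strand) 42 bp before and that of Ndufa11 (chr17:56717687-56717726, plus strand) 60 bp before. All 4 genes carry both KMT9 subunits, and Atp5g2 is the one of them without H4K12me1.
Sdha: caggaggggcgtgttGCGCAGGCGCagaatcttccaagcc
Cox6a1: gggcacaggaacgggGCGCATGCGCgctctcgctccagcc
Atp5g2: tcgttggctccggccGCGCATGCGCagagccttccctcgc
Ndufa11: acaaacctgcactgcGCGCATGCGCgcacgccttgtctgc

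Other genes of the pathway were counted from lists of assembly factors, remaining subunits and regulators. Of 55 such genes KMT9alpha was found at 52 (94.5%), KMT9beta at 48 (87.3%), H4K12me1 at 36 (65.5%) and all 3 at 32 (58.2%). Over all protein-coding genes the shares were 54.2%, 65.1%, 44.9% and 35.5% in the same order. These shares were not weighted to the CpG classes of the 55 genes. In the second highest CpG class, KMT9alpha was found at 3775 of all 4370 genes. All 19 assembly genes of complex IV, among them the heme and copper factors Cox10, Cox15, Sco1 and Sco2, had KMT9alpha. Of these 19, 8 had H4K12me1 (42.1%), near the 44.9% over all genes. The 7 further genes of complex III, including the cytochrome c1 gene Cyc1, all had both subunits, and 5 had the mark. The 3 genes without KMT9alpha were Ecsit, Cyct and Ppargc1a. Cyct, the testis form of cytochrome c, had H4K12me1 alone with a score of 143.44, while Cycs, the form of other tissues, had all 3. The 13 regulator genes had all 3 at 12 promoters. Nrf1 had a KMT9alpha score of 3100, a KMT9beta score of 403.65 and an H4K12me1 score of 257.04. Tfam, whose product packages mitochondrial DNA and helps to transcribe it, had 3100, 178.92 and 67.06 in the same order, and Ppargc1b had 3100, 577.48 and 292.87. Ppargc1a, a coactivator that is high in brown fat, heart and muscle, had no promoter peak of any list. Its CpG ratio was 0.195, in the second lowest class, where 50.4% of all genes had no peak of any list.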

How the data were processed

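Reads were mapped to mm10, per the labels' protocols with STAR, while the submitters' processing notes name Bowtie2. Peak names begin with MACS, while version, threshold and control of the calling are not given in the sources used. Each deposited peak has coordinates and a score whose meaning is not stated, so scores were compared within 1 list only. The lists held 26227 KMT9alpha, 90473 KMT9beta and 60409 H4K12me1 peaks, of which 26146, 90349 and 60289 on chromosomes 1 to 19, X and Y were used. The depth of the libraries is unknown. Starts came from GENCODE M21 (GRCm38.p6, the assembly of mm10), the main start being that of the transcript with the best APPRIS rank. Peak overlap was tested on simulated data. The members, lists and the rule for named genes (restricted isoforms with partners, subunit c, complex II, 2 genes per other group ranked by KMT9alpha among those with all 3, and genes with no peak) were chosen with earlier results of these data known, and other members were named after their values were seen. Promoter sequences matched 72 of the 94 members in the RefSeq table. The tools were Python 3.11.15, scipy 1.17.1, pandas 2.3.3, numpy 2.4.6 and matplotlib 3.10.9.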

Additional observations from a re-analysis of the deposited data

How the results depend on the processing

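The shares were recomputed with other promoter windows, starts, overlap rules, score thresholds and subsets of members, 11 settings in all. Of 324 values 299 stayed inside the exact interval of the reported share. The intervals of small groups are wide, as for KMT9beta in complex II (19.4 to 99.4), so values there can hardly leave them. With peaks at or above the median score, H4K12me1 was found at 28.7% of members, 31.6% of complex I, 37.5% of assembly factors and 12.5% of complex III, and all 3 at 25.5%, 26.3% (complex I) and 12.5% (complex III). With the 26146 highest peaks of each list H4K12me1 was found at 28.7%, 31.6%, 37.5% and 12.5% of the same groups, all 3 at 22.3% of members, 21.1% of complex I and 12.5% of complex III, and KMT9beta at 67.0% of members and 57.9% of complex I, beside 28.9%, 22.2% and 48.0% of all genes for H4K12me1, all 3 and KMT9beta. Without shared promoters H4K12me1 was found at 42.4% of members and 18.2% of complex V, beside 42.3% of all such genes, all 3 at 35.6% and 18.2%, beside 31.9%, KMT9beta at 100% of complex III, and each of them at 0.0% of complex II, which then held 1 gene. A window of 2 kb gave KMT9alpha at 100% of complex I. No paired analysis was possible because each antibody has 1 library, and no replicate could be left out. The depth is unknown, so a missing peak is not shown to be a missing factor.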
